A study of Mus musculus with 27 samples.

Results

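The 10 genes described here encode enzymes of glycolysis, the pathway that splits glucose into pyruvate: the hexokinases Hk1 and Hk2, the phosphofructokinase subunits Pfkl and Pfkm, the aldolase Aldoa, the phosphoglycerate kinase Pgk1, the enolases Eno1 and Eno3, and the lactate dehydrogenase subunits Ldha and Ldhb. They were taken by name, 10 of 24025 genes in a bulk RNA-seq table of mouse heart and 10 of 19020 genes in a single-cell table, and each was found in both. Of them, 8 form 4 isoform pairs (Hk1 and Hk2, Pfkl and Pfkm, Eno1 and Eno3, Ldha and Ldhb). The study compared C57BL/6 mice that carry deletions of Hand2as, also called Hand2os1, a long noncoding RNA gene beside Hand2. Allele F is a knockout of the whole gene, and allele D lacks only its distal 3' part. The 25 bulk libraries, 1 per labelled sample, held E11.5 hearts (3 F/+ and 3 F/F), E16.5 ventricles (3 F/+ and 3 F/F) and cardiomyocytes of 8-week mice (5 +/+, 2 D/+ and 6 D/D), so every embryonic bulk control carried 1 F allele. The 2 single-cell libraries, labelled +/+ and F/F, were each made from 6 pooled E11.5 hearts whose living cells were sorted. The labels do not say whether bulk replicates came from separate animals, so p-values measure the spread between these samples.

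Glucose enters the cell through transporters, is trapped by hexokinase, is committed to glycolysis by phosphofructokinase, and is split by aldolase into the trioses that phosphoglycerate kinase and enolase carry on to pyruvate. Lactate dehydrogenase then interconverts pyruvate and lactate: subunit A is the form of tissues that make lactate, and subunit B the form of tissues that oxidise it, such as adult heart. The embryonic heart relies largely on glycolysis in low oxygen, and the adult heart mainly oxidises fatty acids and lactate. Several steps have a widely expressed isoform and a muscle isoform: Pfkl and Pfkm for phosphofructokinase, Eno1 and Eno3 for enolase. Hk1 is the broadly expressed hexokinase and Hk2 the insulin-responsive one of muscle. Isoforms of a pair are separate genes, whose coding sequences were 70.3% (Hk1 and Hk2), 70.7% (Pfkl and Pfkm), 77.4% (Eno1 and Eno3) and 67.8% (Ldha and Ldhb) identical in an alignment of reference transcripts.

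Many glycolytic genes answer the hypoxia-inducible factors, whose binding sites can hold the letters ACGTG. No other form of the site was searched for, so a window without these letters may still hold a site. The 250 bases before the first listed start are shown for Hk2 and Pgk1, the members whose levels differed in the most uniform way between the single-cell libraries, and for Ldha and Ldhb, the pair whose order turned over between embryo and adult. They are RefSeq sequence of GRCm38.p6, written 5′ to 3′ on the gene's strand. Capitals mark ACGTG or its reverse CACGT, with overlapping matches merged.
Hk2, chr6:82774455-82774704, minus strand: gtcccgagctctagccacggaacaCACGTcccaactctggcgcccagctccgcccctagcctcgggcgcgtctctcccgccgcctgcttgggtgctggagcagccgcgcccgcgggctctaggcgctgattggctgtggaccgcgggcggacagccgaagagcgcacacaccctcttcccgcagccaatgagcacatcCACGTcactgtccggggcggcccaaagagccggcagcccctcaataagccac
Pgk1, chrX:106186850-106187099, plus strand: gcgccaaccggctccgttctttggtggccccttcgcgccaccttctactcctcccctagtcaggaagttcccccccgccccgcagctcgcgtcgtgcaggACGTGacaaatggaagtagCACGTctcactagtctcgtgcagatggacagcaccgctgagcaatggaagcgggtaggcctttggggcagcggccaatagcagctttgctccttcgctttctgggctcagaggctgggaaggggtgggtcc
Ldha, chr7:46845554-46845803, plus strand: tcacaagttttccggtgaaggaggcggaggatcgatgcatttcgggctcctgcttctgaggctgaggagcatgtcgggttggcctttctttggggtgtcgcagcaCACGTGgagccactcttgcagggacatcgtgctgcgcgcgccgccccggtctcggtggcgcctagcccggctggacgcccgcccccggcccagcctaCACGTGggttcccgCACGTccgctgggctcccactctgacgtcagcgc
Ldhb, chr6:142507958-142508207, minus strand: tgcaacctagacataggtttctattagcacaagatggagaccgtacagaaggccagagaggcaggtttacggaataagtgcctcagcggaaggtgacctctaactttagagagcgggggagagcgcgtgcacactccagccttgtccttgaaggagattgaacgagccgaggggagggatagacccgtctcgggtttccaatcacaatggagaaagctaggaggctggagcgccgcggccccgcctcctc
The Ldha window held 3 separate matches, and the Hk2 and Pgk1 windows 2 each. The Ldhb window held no ACGTG or CACGT, and neither did the windows of Hk1, Pfkl, Eno1 and Eno3. Of 4 Pfkm starts and 3 Aldoa starts, 2 each had 1 match, and the second Ldha start had none. For comparison, 16.57% of 32851 RefSeq windows of this length held at least 1 match and 1.954% at least 2. A match describes the letters only, and no binding was measured here.

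Before the results, some features of the libraries bear on them. In the bulk table Hand2os1, listed as LOC102636514, was at 0 in all 6 E11.5 libraries, so it cannot check those labels. It was at 0 in the library labelled +/+ replicate 5 at 8 weeks, against its label, and at 6.90 to 13.5 FPKM in the other 4 +/+ libraries. In the single-cell table (Gm28063) it had 1 UMI in the library labelled +/+ and 9 in the F/F one, which is the reverse of the labels at counts too low to check them. Haemoglobin genes took 10.4% to 29.7% of the summed FPKM at E11.5, 0.651% to 2.42% at E16.5 and at most 0.0596% at 8 weeks. Of the 12 cardiomyocyte markers, whose summed FPKM was 14266 to 19911 at E11.5 and 16037 to 19879 at E16.5, the 8-week sums were 39861 and 41085 in D/D replicates 5 and 6 and 46295 to 55761 in the other 11 libraries. An earlier look at these data found that 5 adult libraries (replicates 1 and 2 of +/+, replicates 1 and 2 of D/D, and replicate 1 of D/+) stand apart from the other 8, and the D/D comparison of the 9 members tested is also given within these sets of 5 and 8. The single-cell libraries had 2563 and 3469 barcodes (medians of 13369 and 13403 UMIs), of which 18 barcode sequences occurred in both.

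Bulk values were first set against the single-cell sums, because a value near 0 in the bulk table need not mean a silent gene. Eno1 was the 1 member whose bulk level was far below what its single-cell sum would give, and none of the other 9 was among the lowest genes by this measure. FPKM is scaled to transcript length and 3' UMI counts are not, so each gene's log2 ratio of mean FPKM to CPM (its UMIs scaled to an equal total per library) was ranked among all genes with at least 10 CPM, 6450 genes for F/F and 6598 for F/+ bulk beside +/+ single cells. Eno1, the widely expressed enolase, had 440 CPM in the F/F single-cell library and 385 CPM in the +/+ library. Its bulk values were 0, 2.66 and 0.90 FPKM in F/F and 0, 8.81 and 10.4 FPKM in F/+ hearts. Its ratio stood at percentiles 1.24 and 2.65, that is, among the lowest of all genes. Among genes with at least 50 CPM it was no longer under the 5th percentile in F/+ bulk beside +/+ cells. The F/F count of members under that percentile was unchanged. The similarly named symbol Eno1b held the reverse pattern: 203 to 278 FPKM in F/F and 144 to 261 FPKM in F/+ hearts, against 7.78 and 5.97 CPM. The sum of Eno1 and Eno1b stood at percentiles 43.6 and 46.0. How reads were divided between the symbols in the bulk table was not tested, so bulk Eno1 alone is not read as a level below, and the sum is given beside it.

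**Figure D1:**
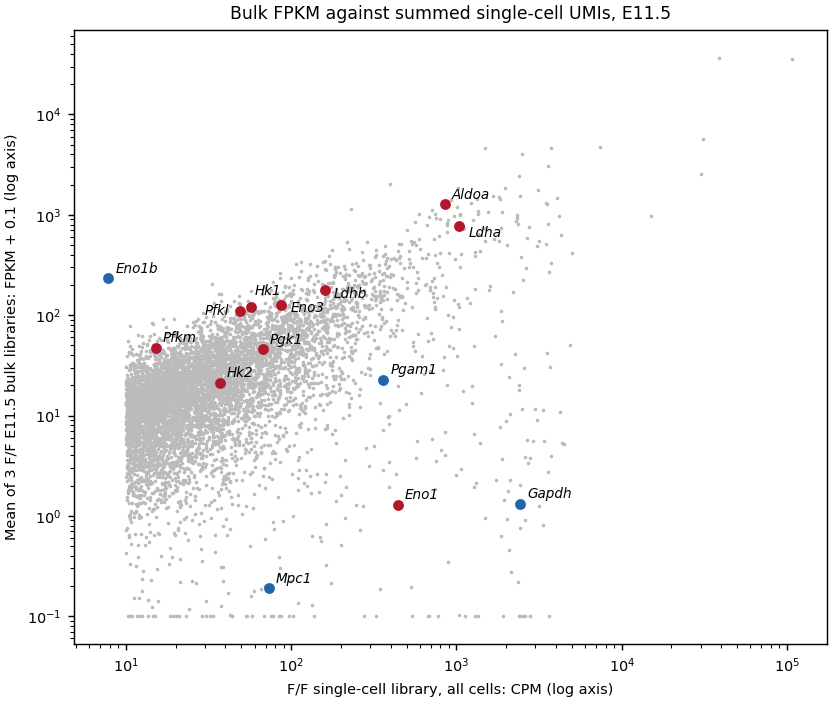
Mean FPKM of the 3 F/F E11.5 bulk libraries plus 0.1 (y, log axis) against CPM over all cells of the F/F single-cell library (x, log axis); grey points are genes with at least 10 CPM, red points the members, blue points 4 other pathway genes. Eno1 lies far below the cloud at 440 CPM and Eno1b far above it at 7.78 CPM, and the other 9 members lie at percentiles 47.3 to 99.0 of the ratio of the axes.

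The other 9 members stood between percentiles 47.3 and 99.0 in F/F and between 20.7 and 98.7 in F/+. Hk2 was the lowest of them (47.3 and 20.7), followed by Pgk1 (55.1 and 53.4) and Ldha (58.9 and 53.0). Pfkm was the highest (99.0 and 98.7), with Pfkl and Hk1 at 94.0 or above. Of the other pathway genes, Gapdh was listed at 0.12 to 1.92 FPKM in the 6 E11.5 libraries against 2334 and 2436 CPM, at percentiles 0.465 and 0.364. Mpc1, a subunit of the mitochondrial pyruvate carrier, stood at 1.13 and 0.849 and Pgam1 at 5.30 and 4.03. Tpi1, Gpi1 and Pkm stood at 70.2, 62.0 and 71.9 in F/F. Searched among reference transcripts, the Eno1 coding sequence had 3 near-identical copies (at least 95% identity over 50% of it) elsewhere in the genome, the closest of them Gm4735 at 99.6%. Pgk1 and Ldha had 2 copies each, Ldhb 1, Gapdh 72, and the other 6 members none. The closest copy of Pgk1, Pgk1-rs7, was 100% identical and had 1.65 and 1.5 CPM in the single cells beside 51.7 and 67.3 CPM for Pgk1. Whether copies account for the low bulk values was not tested, and levels of Eno1, Pgk1, Ldha and Ldhb are uncertain where reads could be split among them.

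In the bulk libraries the muscle or adult isoform of each pair took a larger share at every later stage except for the hexokinases, where Hk2 gained only between E16.5 and 8 weeks. Shares are of the summed FPKM of a pair within 1 library, so the scaling of a library leaves them unchanged. They are described without a test. Pfkm made up 30.9% ± 3.5 (SD, n = 3) of Pfkl plus Pfkm in F/+ hearts at E11.5, 48.1% ± 1.17 (n = 3) in F/+ ventricles at E16.5 and 89.9% ± 1.82 (n = 5) in +/+ cardiomyocytes at 8 weeks. Ldhb made up 17.7% ± 2.62, 25.5% ± 0.545 and 76.1% ± 2.35 of Ldha plus Ldhb in the same groups. Hk2 made up 13.9% ± 2.43, 12.4% ± 1.01 and 49.2% ± 4.36 of Hk1 plus Hk2. Eno3 made up 94.9% ± 4.65, 98.8% ± 1.11 and 99.9% ± 0.262 of Eno1 plus Eno3, which rests on the low Eno1 values. With Eno1b counted as well, an alternative added after the values were seen, it made up 35.7% ± 3.91, 62.5% ± 2.53 and 96.8% ± 0.611.

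**Figure D2:**
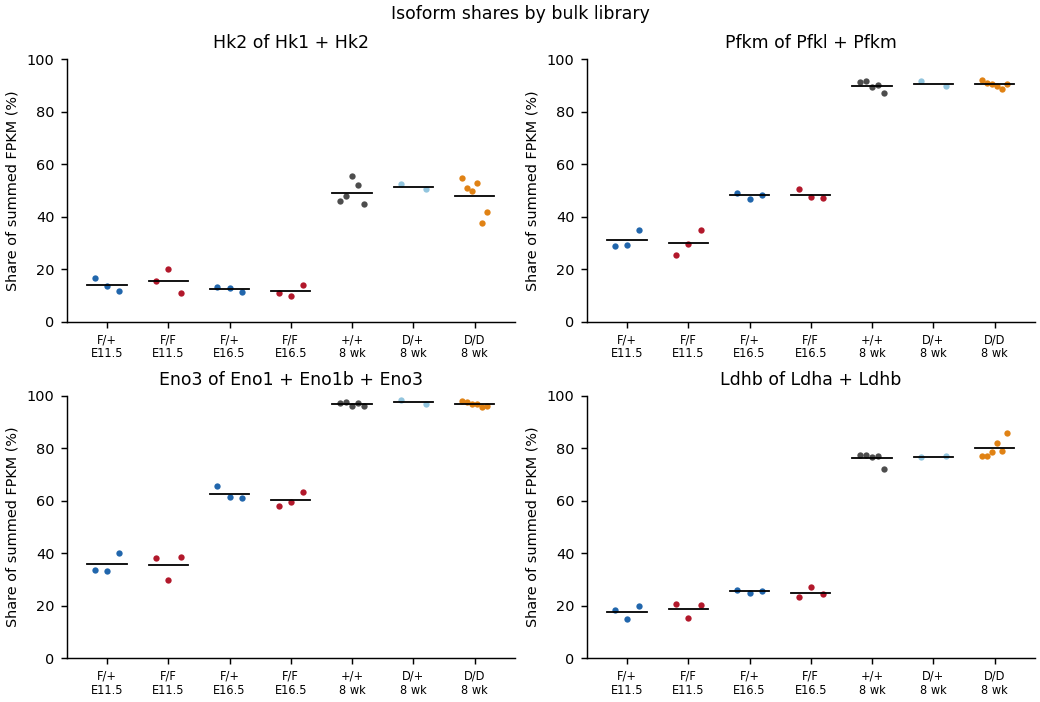
Share of the named isoform in the summed FPKM of its pair (y, percent, 0 to 100) by group (x) for each of the 25 bulk libraries; points are libraries and bars group means, and the enolase panel counts Eno1b. Pfkm, Eno3 and Ldhb shares step up at E16.5 and again at 8 weeks in every library, and the Hk2 share steps up only at 8 weeks.

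The F/F and D/D groups followed the same steps. At E11.5 the F/F shares were 30.1% ± 4.78 for Pfkm, 18.8% ± 2.85 for Ldhb, 15.4% ± 4.46 for Hk2 and 35.5% ± 4.88 for Eno3 with Eno1b (n = 3). At E16.5 they were 48.2% ± 1.88, 25% ± 1.93, 11.52% ± 2.05 and 60.2% ± 2.83 (n = 3). At 8 weeks the D/D shares were 90.4% ± 1.15, 79.9% ± 3.38, 47.9% ± 6.82 and 96.7% ± 0.879 (n = 6). Over all genotypes the E11.5, E16.5 and 8-week ranges did not overlap for Pfkm (25.5% to 35.1%, 46.8% to 50.4% and 87.1% to 92.1%) or for Ldhb (14.7% to 20.6%, 23.5% to 27.2% and 72.0% to 85.7%). The same held for Eno3 with Eno1b (29.9% to 40.2%, 57.8% to 65.4% and 95.6% to 98.2%). The E11.5 and E16.5 ranges of Hk2 overlapped (10.9% to 19.9% and 9.92% to 13.8%), below 37.6% to 55.3% at 8 weeks.

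Between F/+ hearts at E11.5 and F/+ ventricles at E16.5, 6 members rose and 1 fell in a limma fit with Benjamini-Hochberg adjustment over 11437 genes (adjusted p under 0.05). Across all genes 43.8% were called (16% rose and 27.8% fell). The groups did not overlap for those 7 members, beside 58.8% of all genes. Eno3, Pfkm and Hk1 rose by the largest factors, Hk2, Aldoa and Ldhb by smaller ones, and Pgk1 fell. Fold changes here and below are differences of log2(FPKM + 1), which understate the change of low genes. The median over the 10 members was 0.58 on the log2 scale, beside -0.14 over all genes. The same step in F/F libraries, which shares none of its libraries with the F/+ step, called 5 members, beside 44.8% of all genes (1883 genes rose and 3241 fell). Hk1, Pfkm, Aldoa and Eno3 rose and Pgk1 fell, and the groups did not overlap for these and for Ldha, beside 57.6% of all genes. Stage and tissue piece (heart or ventricle) cannot be told apart, and in bulk RNA fewer cells of a type and less RNA per cell cannot be told apart.

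Hk1 had 101, 135 and 73.1 FPKM in F/+ replicates 1, 2 and 3 at E11.5 and 194, 212 and 217 FPKM at E16.5. The groups did not overlap, with a rise of 1.05 ± 0.18 (SE) on the log2 scale (limma adjusted p = 6.787e-05). In F/F it went from 128, 93.4 and 139 FPKM to 213, 209 and 210 FPKM, by 0.83 ± 0.18 (limma adjusted p = 0.0008199). Hk2 had 20.1, 20.9 and 9.80 FPKM at E11.5 and 29.2, 31.4 and 27.5 FPKM at E16.5 in F/+, a log2 fold change of 0.83 ± 0.27 (limma adjusted p = 0.0177). The Hk2 call was lost without F/+ E11.5 replicate 3 (0.50, limma adjusted p = 0.151), without F/+ E16.5 replicate 2 (0.78, limma adjusted p = 0.0562) and without haemoglobin and mitochondrial genes (0.53, limma adjusted p = 0.0893). In F/F, Hk2 went from 17.1 to 23.2 FPKM to a range of 23.0 to 33.7 FPKM, which overlapped (limma adjusted p = 0.302).

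Pfkm, the muscle phosphofructokinase, had 41.7, 49.5 and 43.3 FPKM at E11.5 and 107, 102 and 107 FPKM at E16.5 in F/+, a rise of 1.21 ± 0.16 on the log2 scale (limma adjusted p = 3.066e-06). In F/F it went from 40.5, 47.5 and 53.2 FPKM to 102, 95.4 and 101 FPKM (1.07 ± 0.16, limma adjusted p = 1.571e-05). Pfkl, the liver-type subunit, was at 80.5 to 120 FPKM at E11.5 and 100 to 116 FPKM at E16.5: its log2 differences were 0.18 ± 0.19 in F/+ and -0.03 ± 0.19 in F/F (limma adjusted p = 0.486 and 0.910), and their signs turned to -0.14 without haemoglobin and mitochondrial genes and to 0.22 with upper-quartile scaling. Pfkl was above Pfkm in all 6 libraries at E11.5, and at E16.5 their group means were 113 and 105 FPKM in F/+.

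Aldoa, the muscle aldolase, was the most abundant member per length at each stage. It had 1077, 1168 and 938 FPKM at E11.5 and 1670, 1626 and 1707 FPKM at E16.5 in F/+ (0.66 ± 0.15 on the log2 scale, limma adjusted p = 0.00129). The F/F step was smaller, from 1232 to 1371 FPKM to 1629 to 1695 FPKM (0.38 ± 0.15, limma adjusted p = 0.0450), and that call was lost when any 1 of its 6 libraries was left out (limma adjusted p = 0.0507 to 0.108). Both Aldoa calls were lost without haemoglobin and mitochondrial genes (0.34 and 0.16, limma adjusted p = 0.0669 and 0.411).

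Pgk1, which makes the first ATP of the pathway, had 27.3, 45.1 and 26.6 FPKM in F/+ and 51.4, 54.8 and 31.8 FPKM in F/F hearts at E11.5. In E16.5 ventricles the listed values were 0.21, 1.53 and 0.74 FPKM for F/+ and 0.71, 1.85 and 0.85 FPKM for F/F. The fall was -4.24 ± 0.37 on the log2 scale in F/+ and -4.46 ± 0.37 in F/F (limma adjusted p = 5.038e-09 and 2.422e-09). At 8 weeks it was back at 4.68 to 20.9 FPKM. No single-cell library of E16.5 was used here to set these values against, Pgk1 has an identical copy, and Gapdh was also listed near 0 at this stage (0.52 to 5.09 FPKM), so the values are given as listed.

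Eno3, the muscle enolase, had 107, 134 and 104 FPKM at E11.5 and 350, 293 and 275 FPKM at E16.5 in F/+, the largest rise among the members (1.40 ± 0.18, limma adjusted p = 1.758e-06). In F/F it went from 134, 120 and 129 FPKM to 284, 227 and 345 FPKM (1.14 ± 0.18, limma adjusted p = 2.618e-05). Eno1 was listed between 0 and 10.4 FPKM in all 12 embryonic libraries and passed no test. Eno1b, read here only as part of the enolase sum, was at 144 to 278 FPKM at E11.5 and 155 to 207 FPKM at E16.5, with no called difference (-0.16 ± 0.20 in F/+, limma adjusted p = 0.541).

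Ldhb had 155, 138 and 117 FPKM at E11.5 and 201, 182 and 199 FPKM at E16.5 in F/+ (0.51 ± 0.16, limma adjusted p = 0.0123). In F/F it had 193, 159 and 177 FPKM at E11.5 and 179, 192 and 202 FPKM at E16.5, a difference of 0.12 ± 0.16 (limma adjusted p = 0.574) that passed the threshold with upper-quartile scaling (0.37, limma adjusted p = 0.0472). The F/+ call was lost without haemoglobin and mitochondrial genes (0.20, limma adjusted p = 0.331) and without F/+ E11.5 replicate 3 (0.41, limma adjusted p = 0.0669). Ldha had 684, 797 and 474 FPKM at E11.5 and 576, 549 and 575 FPKM at E16.5 in F/+, with no called difference (-0.17 ± 0.18, limma adjusted p = 0.485), and 744, 868 and 699 FPKM against 585, 516 and 629 FPKM in F/F (-0.42 ± 0.18, limma adjusted p = 0.0701). Without haemoglobin and mitochondrial genes Ldha fell in both genotypes (-0.49 and -0.64, limma adjusted p = 0.0162 and 0.00254), and with upper-quartile scaling its F/+ difference was 0.07. In F/+ hearts the library with the most haemoglobin, E11.5 replicate 3 at 29.7%, held the lowest value of its group for 8 of the 10 members. In F/F hearts replicate 3, with the most haemoglobin at 20.1%, and replicate 2, with the least at 10.7%, held the lowest value for 4 members each. The part of haemoglobin in the stage step was not tested beyond these alternatives. Leaving haemoglobin and mitochondrial genes out moved the median over all genes from -0.14 to -0.42 in the F/+ step, and upper-quartile scaling moved it to 0.04. Hk1, Pfkm and Eno3 rose, and Pgk1 fell, under each of these scalings in both genotypes.

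**Figure D3:**
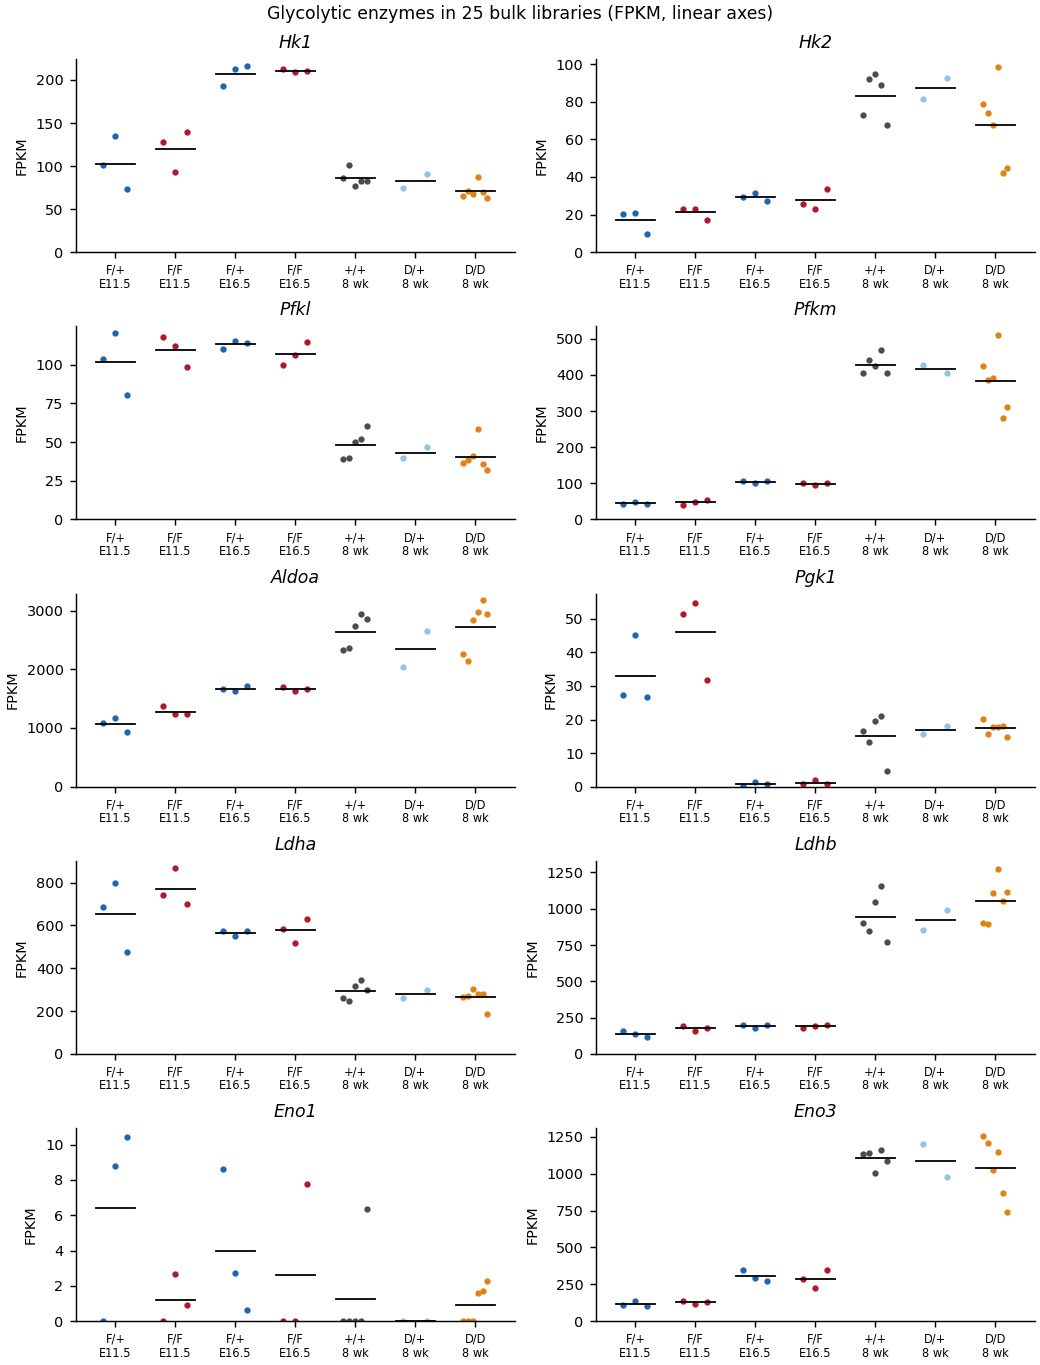
FPKM (y, linear axes that start at 0) of each member in each of the 25 bulk libraries by group (x); points are libraries and bars group means. Pfkm, Eno3 and Ldhb climb to their highest values in the 8-week libraries, Hk1 peaks in the E16.5 libraries at 194 to 217 FPKM, and Ldha and Pfkl are lowest at 8 weeks.

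Between F/+ ventricles at E16.5 and +/+ cardiomyocytes at 8 weeks, 6 members rose and 3 fell in the limma fit, beside 23.6% and 44.2% of all 11437 genes (67.9% called in all). The 9 did not overlap between the groups, beside 65.6% of all genes. The rises were of Ldhb, Pfkm, Eno3, Hk2, Aldoa and Pgk1, and the falls of Hk1, Pfkl and Ldha, so in the 3 pairs apart from the enolases 1 isoform rose and the other fell. Stage, genotype, tissue against isolated cells, and any difference in how the columns were made cannot be told apart here. Ldhb went from 182 to 201 FPKM at E16.5 to 899, 846, 1048, 1154 and 768 FPKM at 8 weeks, the largest rise among the pairs (2.26 ± 0.14 on the log2 scale, limma adjusted p = 3.9e-12). Ldha went from 549 to 576 FPKM to 261, 247, 318, 344 and 299 FPKM (-0.96 ± 0.16, limma adjusted p = 2.392e-05). The order of the subunits was thus reversed, with Ldha above Ldhb in all 12 embryonic libraries and below it in all 13 adult ones.

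Pfkm went from 102 to 107 FPKM to 405, 440, 424, 468 and 407 FPKM (2.02 ± 0.15, limma adjusted p = 4.498e-11). Pfkl fell from 110 to 116 FPKM to 39.2, 39.7, 49.8, 52.3 and 60.4 FPKM (-1.23 ± 0.17, limma adjusted p = 1.621e-06). Hk2 rose from 27.5 to 31.4 FPKM to 73.0, 92.1, 94.8, 88.8 and 67.5 FPKM (1.46 ± 0.25, limma adjusted p = 1.763e-05). Hk1 fell from 194 to 217 FPKM to 85.6, 101, 76.6, 82.3 and 83.1 FPKM (-1.27 ± 0.16, limma adjusted p = 4.492e-07). The hexokinases, at group means of 207 and 29.3 FPKM at E16.5, were thus at 85.7 and 83.3 FPKM in adult cardiomyocytes.

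Eno3 reached 1136, 1140, 1007, 1164 and 1084 FPKM (1.86 ± 0.16, limma adjusted p = 1.089e-09), and Eno1b went down to 28.8 to 40.6 FPKM (-2.33 ± 0.18, limma adjusted p = 8.547e-11). Aldoa reached 2327 to 2936 FPKM (0.66 ± 0.14, limma adjusted p = 0.000212). Pgk1 was at 16.6, 13.2, 19.7, 20.9 and 4.68 FPKM, the lowest in the library labelled +/+ replicate 5. Its log2 fold change was 3.06 ± 0.33 (limma adjusted p = 3.096e-08) from its listed E16.5 values and 3.39 without that library. Gapdh, listed at 0.52 to 5.09 FPKM at E16.5, stood at 980 to 2529 FPKM in the adult libraries of all genotypes. Whether the columns were made alike for such genes was not tested, so the Pgk1 rise is given as listed. Eno1 was at 0 in +/+ replicates 1 to 4 and at 6.38 FPKM in the library labelled +/+ replicate 5, and its difference was not called (-1.37, limma adjusted p = 0.153), but passed the threshold without that library (-1.95, limma adjusted p = 0.0331). The 9 called members kept their direction and their call in every alternative run, upper-quartile scaling included.

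The rest of the pathway was taken from a list of 63 other genes, of which 62 were in the bulk table and 54 were tested between stages. In the F/+ step from E11.5 to E16.5, 26 rose and 8 fell, beside 16% and 27.8% of all genes. In the F/F step 24 rose and 11 fell, beside 1883 and 3241 of all 11437 genes. The median log2 difference was 0.60 in F/+ and 0.38 in F/F, beside -0.14 over all genes in each. At the point of glucose entry, Slc2a1, the widely expressed transporter, fell from a mean of 229 to 65.8 FPKM in F/+ (-1.73, limma adjusted p = 1.778e-06), while Slc2a4, the insulin-responsive transporter of muscle, rose from 10.6 to 53.0 FPKM (2.24, limma adjusted p = 7.538e-08). Among the enzymes between the members, Gpi1, Pfkp, Tpi1, Aldoc and Pgam2 rose by 0.67 to 2.01 on the log2 scale in F/+ (limma adjusted p of 0.00566 or below). Pgam1, the phosphoglycerate mutase of most tissues, differed by -0.55 in F/+ without passing the test (limma adjusted p = 0.0529), and in F/F it fell from 22.6 to 9.71 FPKM (-1.13, limma adjusted p = 0.000338). Pkm, the pyruvate kinase of muscle, did not pass the test (539 and 675 FPKM, limma adjusted p = 0.227). Pklr, the pyruvate kinase of liver and red cells, had a mean of 30.6 FPKM at E11.5 and was listed at 0 in all 3 F/+ ventricles. Bpgm, which makes the 2,3-bisphosphoglycerate of red cells, fell from 52.9 to 14.6 FPKM (-1.78, limma adjusted p = 2.386e-05). Summed erythroid markers went from 39240 to 136184 FPKM at E11.5 to 131 to 3304 FPKM at E16.5, and their part in these 2 falls was not tested.

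Downstream of the members, 3 of the 5 listed subunits of pyruvate dehydrogenase, which carries pyruvate into oxidation, rose at E16.5 in F/+, beside 16% of all genes. Dlat, Dld and Pdhb rose by 1.85, 1.48 and 1.36 on the log2 scale (limma adjusted p of 0.00195 or below), while Pdha1 (63.5 and 87.0 FPKM) and Pdhx (11.04 and 12.96 FPKM) did not pass the test. Pdk2 and Pdk1, kinases that inhibit the complex, rose by 2.25 and 1.18. Mpc2 rose by 1.37, from 53.6 to 138 FPKM, whereas its partner Mpc1 was listed at 0 at E11.5, where the single-cell libraries had 67.3 and 73.2 CPM, so its difference is not read. Slc16a1, a monocarboxylate transporter, rose from 28.0 to 69.1 FPKM (1.27). Among regulators, Ppargc1a, Esrra and Epas1 rose by 2.31, 1.79 and 1.93 on the log2 scale, while Hif1a did not pass the test (13.1 and 15.7 FPKM).

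From E16.5 to 8 weeks, 20 of the 54 listed genes rose and 18 fell, beside 23.6% and 44.2% of all genes, with a median of 0.08 beside -0.35 over all genes. Slc2a4 rose further to 291 FPKM and Slc2a1 fell to 10.7 FPKM (2.42 and -2.52 on the log2 scale). Slc16a3, the lactate exporter of glycolytic cells, fell from a mean of 115 to 0.898 FPKM (-5.94, limma adjusted p = 1.167e-16), and Bsg, the chaperone of these transporters, rose from 369 to 1101 FPKM (1.56). Aldoc and Pfkp fell by 4.21 and 2.31. Pygm, the glycogen phosphorylase of muscle, rose from 158 to 841 FPKM (2.40), and Pygl, that of liver, fell from 38.1 to 1.80 FPKM (-3.85). Pdk4, which spares glucose when fatty acids are burned, rose from 8.12 to 86.7 FPKM (2.99, limma adjusted p = 0.000553). Hif1a fell from 15.7 to 3.88 FPKM (-1.88) and Egln1, which marks it for destruction in oxygen, rose from 28.1 to 133 FPKM (2.19).

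The full-length deletion was tested at each embryonic stage, and no member was called at either. At E11.5 limma called 0 of 10 members, beside 1 of 11491 genes (0.0087%); at an unadjusted p under 0.05 there was 1 member, Ldhb, beside 4.37% of all genes. Means were higher in F/F than in F/+ for 9 of the 10, and the median log2 difference was 0.26, beside 0.02 over all genes. The summed FPKM of the 12 cardiomyocyte markers was also higher in F/F without overlap. It was 19910.5, 17704 and 19454 in F/F and 14266, 16386 and 14616 in F/+. The part of cell composition in these differences was not tested. Of the members, 2 did not overlap between the genotypes, beside 9.23% of all genes: Aldoa with 1371, 1232 and 1232 FPKM against 1077, 1168 and 938 FPKM (0.27 ± 0.15, limma adjusted p = 0.999), and Ldhb with 193, 159 and 177 FPKM against 155, 138 and 117 FPKM (0.37 ± 0.16, limma adjusted p = 0.999). Hk2 had 23.1, 23.2 and 17.1 FPKM in F/F and 20.1, 20.9 and 9.80 FPKM in F/+ (0.36 ± 0.28), which overlapped. Without F/+ replicate 3, the library rich in haemoglobin, the Hk2 difference was 0.03, that of Hk1 0.02 and that of Ldha 0.06, against 0.25 for Hk1 and 0.27 for Ldha with all libraries. Of the 49 listed pathway genes tested, limma called 0, and 41 had higher means in F/F (median 0.15).

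At E16.5 limma called 0 of 9 members tested, beside 1 of 10699 genes (0.00935%). Pgk1 was below the filter of a mean of 1 FPKM. Pfkm alone did not overlap, beside 6.78% of all genes, with 101.53, 95.44 and 101.44 FPKM in F/F and 106.58, 101.76 and 106.63 FPKM in F/+ (-0.08 ± 0.07, limma adjusted p = 0.9999). The median over the 9 members was -0.08, beside 0.00 over all genes, and the log2 differences apart from Eno1 lay between -0.11 for Eno3 and 0.02 for Hk1. At an unadjusted p under 0.05 there was no member, beside 2.63% of all genes. The difference between the F/F effects at E16.5 and E11.5 was tested as an interaction over 11423 genes and was called for 0 members (limma adjusted p = 0.9991 for each). The lowest unadjusted p was that of Ldhb, with a difference of -0.39 ± 0.17 on the log2 scale.

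In 8-week cardiomyocytes the 6 D/D libraries were set against 7 controls, the 5 +/+ libraries and the 2 D/+ ones. Limma called 0 of 9 members tested and 0 of all 10249 genes (0%), Eno1 being below the filter. At an unadjusted p under 0.05 there was 1 member, Hk1, beside 1.71% of all genes. Hk1 was at 63.3 to 87.3 FPKM in the 6 D/D libraries (median 69.0) and at 74.0 to 101 FPKM in the 7 controls (median 83.1), which overlapped (-0.26 ± 0.11, limma adjusted p = 0.9999). Within the set of 5 libraries its log2 difference was -0.33, and within the set of 8 it was -0.21. The same pairs of values were -0.10 and -0.51 for Hk2, -0.08 and -0.35 for Pfkl, -0.07 and -0.23 for Pfkm, 0.05 and 0.21 for Ldhb, and 0.21 and 0.28 for Pgk1. For Ldha (0.07 and -0.29), Eno3 (0.09 and -0.18) and Aldoa (-0.02 and 0.09) the sets differed in sign. Hk2 was at 42.2 to 98.2 FPKM in D/D (median 70.7) and at 67.5 to 94.8 FPKM in controls (median 88.8), a difference of -0.37 ± 0.18 (limma adjusted p = 0.9999). The 2 lowest Hk2 values, 42.2 and 45.0 FPKM, were those of D/D replicates 5 and 6, which also had the lowest Pfkm (280 and 312 FPKM), the lowest Eno3 (870 and 744 FPKM) and the lowest cardiomyocyte marker sums. Without them, an alternative chosen after seeing the data, the Hk2 difference was -0.08 and that of Pfkm 0.00. Ldhb was at 893 to 1273 FPKM in D/D and 768 to 1154 FPKM in controls (0.17 ± 0.12), Eno3 at 744 to 1253 and 976 to 1204 FPKM, and Aldoa at 2141 to 3178 and 2036 to 2936 FPKM. Pgk1 was at 14.77 to 20.04 FPKM in D/D and 4.68 to 20.9 FPKM in controls (0.24 ± 0.26), and its difference was 0.00 without the library labelled +/+ replicate 5. No member separated the genotypes, beside 0.0293% of all genes. Aldoa was at 2036 to 2356 FPKM in the set of 5 and at 2648 to 3178 FPKM in the set of 8. The sets were drawn from these same expression values, so this separation is described and not tested.

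The single-cell libraries, +/+ and F/F, held 2503 and 3368 cells after filters and removal of likely doublets. In the F/F library 9 of the 10 members had their highest CPM in cardiomyocyte-like cells. Hk2 was highest in immune-like cells in each library (266 and 105 CPM). In the +/+ library Pfkl, Pgk1 and Eno1 were slightly higher in hepatocyte-like cells, a class of 13 cells found in that library only. They stood at 103.04, 134.26 and 789.98 CPM there, against 102.37, 125.18 and 778.58 CPM in cardiomyocyte-like cells. Classes were named from marker genes, and the classes are called "like" for that reason. Cardiomyocyte-like cells (585 and 938 cells) carried all 12 cardiomyocyte markers, with Tnnt2 at 3663 and 3393 CPM. Erythroid-like cells, the largest class with 956 and 1239 cells, were the lowest for 8 members in the +/+ library. Values below are CPM in the library labelled +/+ and then in the library labelled F/F. In cardiomyocyte-like cells Ldha stood at 2276 and 2283 CPM, Aldoa at 2099 and 2029 CPM and Eno1 at 779 and 872 CPM. Ldhb stood at 364 and 352 CPM, Eno3 at 272 and 278 CPM, Hk1 at 170 and 162 CPM and Hk2 at 162 and 83.4 CPM. Pgk1 stood at 125 and 152 CPM, Pfkl at 102 and 93.1 CPM and Pfkm at 37.0 and 33.7 CPM.

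**Figure D4:**
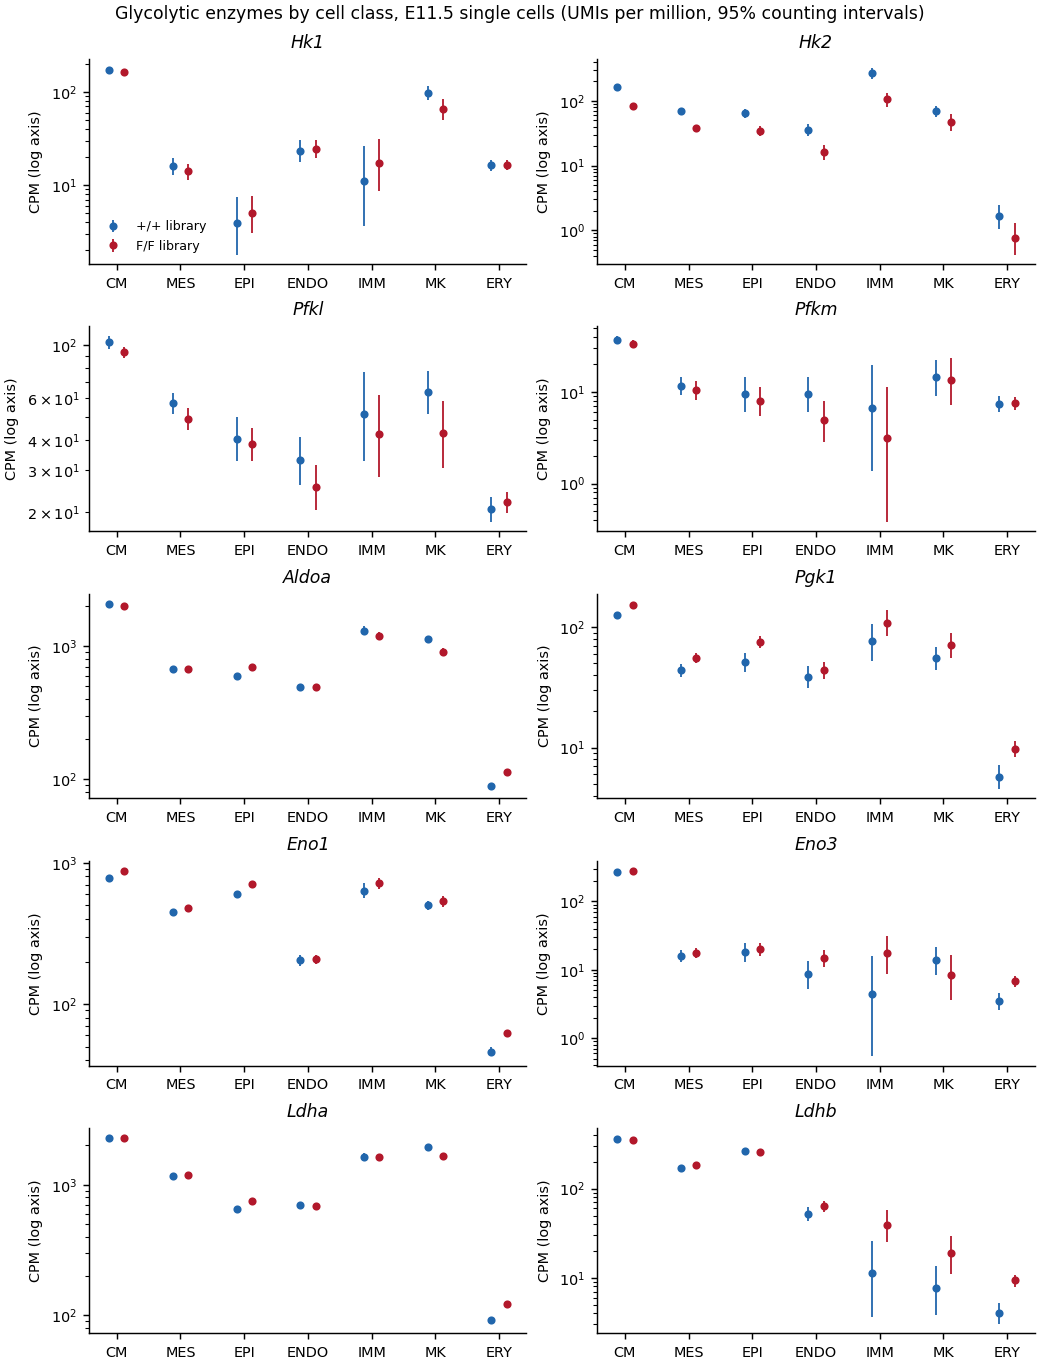
CPM (y, log axes) of each member by cell class (x: CM cardiomyocyte-like, MES mesenchymal-like, EPI epicardial-like, ENDO endothelial and endocardial-like, IMM immune-like, MK megakaryocyte-like, ERY erythroid-like) in the +/+ (blue) and F/F (red) libraries, with 95% exact Poisson intervals that cover counting error only. Among the classes shown, Eno3 is at 19.98 CPM or below outside cardiomyocyte-like cells, Hk1 is next highest in megakaryocyte-like cells at 98.2 and 65.7 CPM, and Ldha and Aldoa are at 494 CPM or above in every class but the erythroid-like one.

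Eno3 was the most concentrated member: 89.0% and 89.2% of its UMIs came from cardiomyocyte-like cells, which held 24.7% and 28.0% of all UMIs. In the other classes of the figure it stood at 3.47 to 19.98 CPM. Outside the figure it stood at 69.3 and 69.8 CPM in the unnamed cluster, and at 40.6 CPM (13 UMIs) in hepatocyte-like cells of the +/+ library. Hk1 came next, with 73.8% and 78.8% of its UMIs from cardiomyocyte-like cells. Megakaryocyte-like cells had the next highest Hk1, at 98.2 and 65.7 CPM, and epicardial-like cells had the least, at 3.93 and 5.00 CPM (9 and 20 UMIs). Pfkl and Eno1 were the least concentrated, with 47.4% and 49.98% of their UMIs from cardiomyocyte-like cells in the +/+ library. Erythroid-like cells had the largest part in Pfkm, with 17.1% and 18.3% of its UMIs, and the smallest in Hk2, with 0.897% and 0.768%.

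The pairs therefore differed between cell classes. Shares below are of a pair's UMIs, with exact binomial 95% intervals that cover counting error only. Eno3 took 25.9% (25 to 26.8) of Eno1 plus Eno3 in cardiomyocyte-like cells of the +/+ library, 3.41% (2.79 to 4.13) in mesenchymal-like cells and 2.89% (2.08 to 3.89) in the epicardial-like class. In the same order the summed CPM of the 12 cardiomyocyte markers was 54891, 1421.9 and 3607.5. The part of stray cardiomyocyte RNA in the low Eno3 counts was not tested. Pfkm took 26.5% (24.1 to 29.1) of Pfkl plus Pfkm in cardiomyocyte-like cells, 26.6% (22.3 to 31.3) in erythroid-like cells and 17.0% (13.6 to 20.9) in mesenchymal-like cells. Ldhb did not take its largest share in cardiomyocyte-like cells: it took 13.8% (13.4 to 14.2) of Ldha plus Ldhb in cardiomyocyte-like cells, 12.8% (12.1 to 13.6) in mesenchymal-like cells and 29.0% (27.1 to 31.0) in epicardial-like cells. In megakaryocyte-like cells Ldhb took 0.387% (0.193 to 0.691), with Ldha at 1960 CPM. Hk2 took 48.8% (47.1 to 50.6) of Hk1 plus Hk2 in cardiomyocyte-like cells, 81.3% (77.8 to 84.5) in mesenchymal-like cells and 94.3% (89.4 to 97.3) in the epicardial-like class, where Hk1 had 9 UMIs. In whole-library sums Hk2 took 54.9% in the +/+ library and 39.2% in the F/F library, against 13.9% and 15.4% in the F/+ and F/F bulk hearts. In these E11.5 sums and bulk means Hk1 was thus the larger of the pair in F/F in both tables. Hk2 was the larger only in the +/+ single cells. FPKM is per length and UMI counts are not, and the difference between tables was not tested further.

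Among the 4 cardiomyocyte-like clusters with at least 20 cells in each library, the one led by Rspo3, Sema3c and Bmp4 (173 and 269 cells) had the highest CPM of most members: Ldha at 3430 and 3382 CPM, Eno3 at 464 and 452 CPM, Aldoa at 2619 and 2501 CPM and Hk2 at 244 and 102 CPM. The Myl2-led cluster, the largest (294 and 497 cells), had Ldha at 1959 and 1933 CPM and Eno3 at 201 and 210 CPM. The Nppa-led cluster (80 and 92 cells) had Ldha at 1453 and 1391 CPM, Eno3 at 184 and 178 CPM and the highest Hk1, at 211 and 206 CPM. Clusters were made from the same cells, so these differences are described and not tested.

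Between the single-cell libraries Hk2 was the 1 member that differed by more than 1.5-fold where a member had at least 100 UMIs in both, and it was lower in the library labelled F/F in each class that both libraries held. There is 1 library per genotype, so no test of genotype is possible, and intervals cover counting error only. Over all cells Hk2 had 69.2 CPM (2563 UMIs) in the library labelled +/+ and 37.0 CPM (1824 UMIs) in the one labelled F/F. The log2 ratio was -0.90 (-0.99 to -0.82), at percentile 0.443 of the 10384 genes that reached 100 UMIs in both. Of those genes 1.41% were more than 1.5-fold lower and 0.183% more than 1.5-fold higher, and no member was higher. In cardiomyocyte-like cells it went from 162 to 83.4 CPM (-0.96, interval -1.07 to -0.85), where 1.28% of genes were lower by that factor and 0.142% higher. In mesenchymal-like cells the ratio was -0.88 (-1.10 to -0.66), beside 1.62% of genes lower and 0.217% higher. In the epicardial-like class it was -0.91 (-1.25 to -0.56), beside 2.86% lower and 0.134% higher. Endothelial and endocardial-like cells had 83 and 56 UMIs (-1.15, interval -1.66 to -0.64) and immune-like cells 119 and 67 UMIs (-1.34). In the 11 clusters with at least 20 cells and 20 UMIs of Hk2 per library, the ratio was below 0 in 11, from -1.25 to -0.40. Clusters were cut from the same 2 libraries, so they are not repeated observations. How many of all genes keep 1 sign across clusters was not tested.

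**Figure D5:**
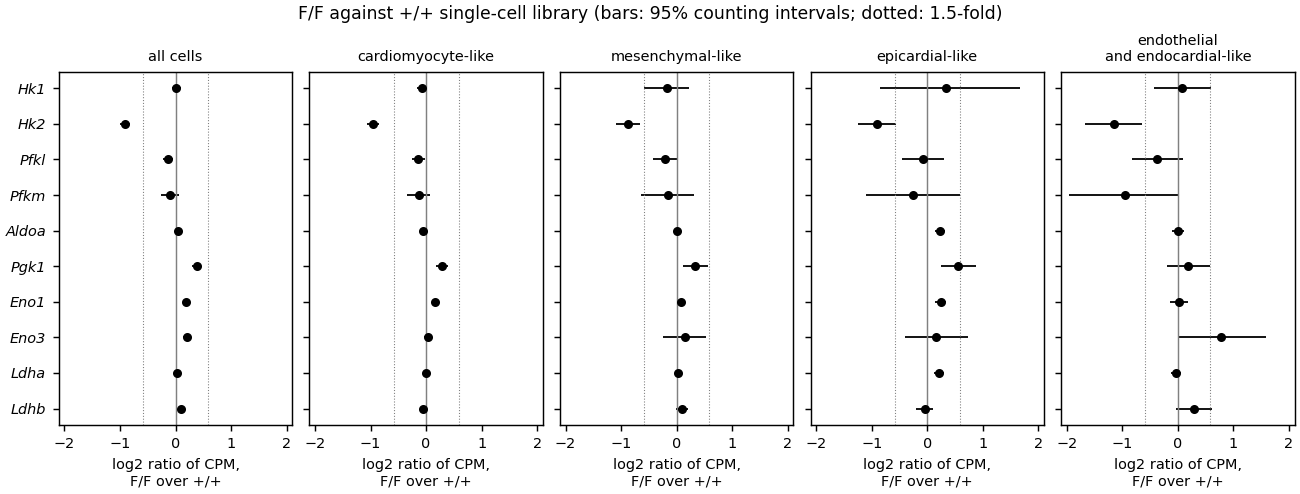
Log2 ratio of CPM in the F/F over the +/+ library (x) for each member (y) over all cells and in 4 classes; points are ratios, bars 95% counting intervals and dotted lines 1.5-fold. Hk2 lies near -0.9 to -1.15 in each panel, Pgk1 lies to the right of 0, and Aldoa and Ldha lie within 0.25 of 0.

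The bulk hearts of the same stage gave Hk2 the opposite sign (0.36 ± 0.28 for F/F against F/+, not called), with F/+ rather than +/+ as the control. Doublets kept or coarser clusters gave ratios of -0.79 each in cardiomyocyte-like cells. Pgk1 had the reverse pattern at a smaller size: 51.7 and 67.3 CPM over all cells (0.38, interval 0.30 to 0.46) at percentile 99.0, and a ratio above 0 in 15 of 15 clusters compared, from 0.03 to 1.07. Outside cardiomyocyte-like cells the summed CPM of the 12 cardiomyocyte markers was also higher in F/F in each shared class, as in mesenchymal-like cells (1421.9 and 1918.5). In cardiomyocyte-like cells the sums were 54891 and 54559, with Pgk1 at 125 and 152 CPM. The part of the markers in the Pgk1 ratios was not tested. Bulk Pgk1 at E11.5 differed by 0.47 ± 0.26 (limma adjusted p = 0.999). The other 8 members had ratios between -0.13 for Pfkl and 0.21 for Eno3 over all cells, and between -0.14 and 0.16 in cardiomyocyte-like cells. At fewer than 100 UMIs in the +/+ library, other members also differed by more than 1.5-fold in some classes, and those whose interval left out 0 are given here. In erythroid-like cells Pgk1 (5.72 and 9.82 CPM), Eno3 (3.47 and 6.80 CPM) and Ldhb (4.05 and 9.33 CPM) were higher in the F/F library, with log2 ratios of 0.78 (0.39 to 1.18), 0.97 (0.48 to 1.48) and 1.20 (0.76 to 1.67). There the summed CPM of the 12 cardiomyocyte markers was also higher, at 440 and 951. Ldhb was higher in megakaryocyte-like cells (1.30, interval 0.14 to 2.53, 11 and 18 UMIs) and immune-like cells (1.81, interval 0.40 to 3.56, 5 and 25 UMIs), where the marker sums were 704 and 978 CPM, and 378 and 899 CPM, in that order. In the unnamed cluster Pfkl (-0.61, interval -1.16 to -0.08) and Pfkm (-1.94, interval -3.98 to -0.31) were lower. The part of the markers in these low values was not tested. Over all cells, none of the 47 other pathway genes with 100 UMIs in both libraries differed by more than 1.5-fold. In cardiomyocyte-like cells 1 of 38 was lower by that factor, beside 1.28% of all genes, and none was higher. It was Esrra, an activator of oxidative metabolism (51.8 and 32.8 CPM). In mesenchymal-like cells 1 of 25 was lower in the library labelled F/F, beside 1.62% of all genes. It was Gys1, the glycogen synthase (24.9 and 14.2 CPM). Higher in the library labelled F/F by that factor were Pgam1 in erythroid-like cells (20.7 and 32.4 CPM, 1 of 20 listed genes beside 1.51% of all genes) and Pgam2, the muscle form, in the unnamed Rgs5-led cluster (170 and 276 CPM, 1 of 7 beside 1.05%).

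By the rule for likeness of pattern, the nearest profiles of each member were taken over 30 points, 15 clusters in each of 2 libraries, among 2200 genes. The points share libraries and depth, so Pearson's r is a description. Aldoa lay nearest to Gapdh (r = 0.991) and Gpi1 (0.990), and Pgk1 to Aldoa and Gapdh (0.978 each). Eno1 lay nearest to Mif (0.983) and Pgam1 (0.975), Ldha to Mdh2 (0.980) and Pfkl to Tpi1 (0.920). Eno3 lay nearest to Atp1b1 (0.981) and the cardiac troponin gene Tnnt2 (0.978), Hk2 to Romo1 (0.970) and Vcl (0.966), and Hk1 to Sod2 (0.957). Ldhb lay nearest to Lbh (0.975) and Tead1 (0.970), and Pfkm, at a mean of 16.4 CPM, to Ndufa6 (0.903). Pfkl, Aldoa, Pgk1, Eno1 and Ldha thus had another glycolytic enzyme among their 3 nearest profiles, and Hk1, Hk2, Pfkm, Eno3 and Ldhb had none.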

How the data were processed

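Members, gene lists and alternatives were chosen with earlier results of these data known. The authors deposited bulk values, read here as FPKM from their size since no header names the unit, so depth is unknown. Per the submitters' processing notes, CASAVA, TopHat and TopHat2 2.0.11 with mm9 were used for bulk and Cell Ranger with mm10 for single cells. The counting step is not given in the sources used here. The authors deposited whole UMI counts per barcode, 38302758 and 51432290 in all, with barcode endings for wild type and knockout.

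Bulk lines that repeated a symbol held identical values and were merged, and 1 gene that lacked a value was dropped. A fit kept the genes whose mean over its libraries reached 1 FPKM. Limma 3.58.1 (R 4.3.3, intensity trend) was fitted to log2(FPKM + 1), with Benjamini-Hochberg adjustment and a threshold of 0.05, and tested on simulated data. Genotype fits used the libraries of 1 stage; stage steps used all 25.

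Barcodes with at least 500 genes were kept. Scrublet marked 2 and 4 barcodes, too few, so the 52 and 96 highest scores were removed. Scanpy 1.11.5 clustered the cells (2000 variable genes, 30 components, Leiden resolution 1). Counts were summed by class. Intervals cover counting error. Copies were searched with BLAST+ 2.17.0 in GRCm38 transcripts.

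Named genes are the members, listed pathway genes that were called or that enter the check against single cells, and the 3 nearest profiles of each member. Alternatives were pseudocount 0.1, no filter, other scalings, a replicate block, a Y-linked term, left-out libraries, and for cells 1000 genes, doublets kept and resolution 0.5.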

Additional observations from a re-analysis of the deposited data

Results flagged for a closer look

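In 20 groups of 4 to 10 libraries, 4 values stood further from the rest of their group than Dixon's 95% critical value allows, where chance flags about 1 group in 20. Hk1 at 87.28 FPKM and Pfkl at 58.56 FPKM were both the highest of the D/D group and both in replicate 4, which also had the highest Pfkm, Hk2 and Ldhb of that group. Ldha at 186.09 FPKM in D/D replicate 6 was the lowest of its group. Eno1 at 6.38 FPKM in the library labelled +/+ replicate 5 was the highest of its group, the other 4 libraries being at 0, and the same library had the lowest Pgk1 at 4.68 FPKM.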

How the results depend on the processing

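The bulk table gives no depth, and 3 libraries a group limit each genotype comparison of the embryo. The 8-week count remained 0 in every alternative. At E11.5 the count of called genes was 2 with the replicate block and 1 to 2 with 1 library left out; at E16.5 it was 2 with pseudocount 0.1, 3 with a term for Y-linked genes and 0 to 2 with 1 library left out. With the replicate block the counts were 5534, 5664 and 7957 for the stage steps (F/+, F/F, then to 8 weeks), and the members' calls moved only for Ldha in F/F (-0.42, limma adjusted p = 0.0470) and Eno1 at 8 weeks (-1.94, 0.0408). The replicate numbers were not taken to pair the samples: same-numbered libraries of the genotypes correlated at -0.036, -0.017 and 0.082 at E11.5 and at -0.081, 0.042 and -0.435 at E16.5, and not every library correlated best with its own number. Of the called genes in the 3 steps, 36.5%, 36.7% and 34.8% rose; with upper-quartile scaling 52.4%, 53.4% and 48.1% did, and without haemoglobin and mitochondrial genes 20.003%, 24.0% and 34.2%.

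With Eno1b counted, the Eno3 share was 35.713% and 35.503% (F/+ and F/F, E11.5), 62.497% and 60.157% (E16.5), and 96.822%, 97.546% and 96.738% (+/+, D/+ and D/D). The Hk2 ratio in cardiomyocyte-like cells was -0.7919 with doublets kept and -0.7891 at resolution 0.5. Among genes with at least 50 CPM, 0 members stood under the 5th percentile in F/+ bulk beside +/+ cells. The cause of these moves was not tested.

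Some uncalled differences changed sign. Without haemoglobin and mitochondrial genes these were Pfkm at E11.5 (-0.0115), Aldoa at E16.5 (0.0148), Pfkl in the F/+ step (-0.1396) and Ldhb in the F/F step (-0.1028). With the Y-linked term at E16.5 they were Hk1 (-0.0095), Aldoa (0.0348) and Ldhb (0.0728). With upper-quartile scaling they were Ldha in the F/+ step (0.0698) and Pfkl in the F/F step (0.2171), and with pseudocount 0.1 Eno1 in both (0.2997 and -0.604). Eno3 in D/D was 0.0138 with the block, and with D/D replicates 5 and 6 left out Pfkm, Aldoa and Eno3 were 0.0018, -0.0041 and 0.0711. With 1 library left out, ranges that crossed 0 were, at E11.5, Pfkl -0.0312 to 0.2565 and Pfkm -0.0269 to 0.1666. At E16.5 they were Hk1 -0.0243 to 0.0566, Hk2 -0.2544 to 0.0106, Aldoa -0.0200 to 0.0153, Eno3 -0.2603 to 0.0400, Ldha -0.0442 to 0.0981 and Ldhb -0.0653 to 0.0263. In the stage steps they were Eno1 in F/+ (-1.454 to 0.3119) and in F/F (-0.9326 to 0.6329) and Pfkl in F/F (-0.1084 to 0.0203).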
